A study of Mus musculus with 27 samples.

Results

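The mRNAs described here are those of Trp53, the mouse gene for p53, and of 5 genes whose products act back on p53: Mdm2, Mdm4, Ppm1d, Ccng1 and Rchy1. They were taken by name from deposited tables that list 38352 genes, and each of the 6 symbols matched 1 row. The cells were E14Tg2a, an established line of wild-type mouse embryonic stem cells grown as pluripotent cells on gelatin with serum, LIF and 2i supplement, so every result comes from 1 cell line in culture. Treated cells were exposed to 500 µM hydrogen peroxide (H2O2) for 30 min, after which the medium was exchanged for spent medium of untreated cells. The first harvest was at 0.5 h, the end of the exposure, and the others at 2, 4, 6, 8, 10 and 24 h. Untreated cells were harvested at 0 h and at 24 h, with 3 biological replicates in each of the 9 groups and 27 libraries in all. No untreated group was sampled between 0 h and 24 h, and none had only its medium changed. Treatment, medium change and time in culture therefore cannot be told apart from 0.5 h to 10 h. At 24 h the untreated group matches in time, but treatment and medium change cannot be told apart there either.

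p53 is a transcription factor that is held at a low level in unstressed cells because Mdm2, a ubiquitin ligase, binds it and marks it for breakdown. Mdm4 (also called MdmX) pairs with Mdm2 and blocks the activation domain of p53. DNA damage, which oxidants such as H2O2 cause, triggers kinases that free p53 from Mdm2, and p53 then switches on genes that include Mdm2 itself, Ppm1d, Ccng1 and Rchy1, closing a negative feedback loop. Ppm1d (Wip1) is a phosphatase that removes activating phosphates from p53 and from its kinases, Ccng1 (cyclin G1) brings the phosphatase PP2A to Mdm2, and Rchy1 (Pirh2) is another ubiquitin ligase of p53. p53 is controlled largely at the level of the protein, which was not measured here.

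The stretches before the transcription starts are shown because the members differ in when they responded, and because p53 acts through a known DNA element made of 2 half-sites. RefSeq promoter windows, 250 bases before to 50 bases after a start, were matched for all 6 genes (8 windows on GRCm38.p6), and an exact match to the 10-base p53 half-site consensus was searched, which reads the same on both strands. A match stood in at least 1 window of 5 of the 6 genes (Trp53, Mdm2, Ppm1d, Ccng1 and Rchy1), beside 9.55% of all 27025 genes in the RefSeq table and 8.36% of its 32851 windows. Neither Mdm4 window held one, and neither did the other Rchy1 window. The 250 bases before the start are printed 5′ to 3′ on the strand of the gene, with the half-site match in capitals.
Mdm2, chr10:117710759-117711008, minus strand: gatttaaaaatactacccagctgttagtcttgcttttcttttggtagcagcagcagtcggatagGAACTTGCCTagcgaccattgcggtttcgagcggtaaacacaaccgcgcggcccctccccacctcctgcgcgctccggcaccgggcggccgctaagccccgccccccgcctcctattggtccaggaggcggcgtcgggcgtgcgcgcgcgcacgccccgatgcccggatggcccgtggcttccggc
Ccng1, chr11:40755287-40755536, minus strand: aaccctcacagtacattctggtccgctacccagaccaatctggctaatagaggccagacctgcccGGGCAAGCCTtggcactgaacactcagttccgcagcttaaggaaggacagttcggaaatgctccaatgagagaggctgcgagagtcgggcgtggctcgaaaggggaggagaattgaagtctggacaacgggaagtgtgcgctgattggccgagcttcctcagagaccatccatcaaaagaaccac
Ppm1d, chr11:85311004-85311253, plus strand: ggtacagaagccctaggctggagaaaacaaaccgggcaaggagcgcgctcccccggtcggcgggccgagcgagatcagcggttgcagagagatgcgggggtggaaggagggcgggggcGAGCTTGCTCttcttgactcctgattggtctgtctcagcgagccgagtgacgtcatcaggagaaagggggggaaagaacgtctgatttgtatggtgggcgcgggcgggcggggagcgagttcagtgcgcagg
Trp53, chr11:69580109-69580358, plus strand: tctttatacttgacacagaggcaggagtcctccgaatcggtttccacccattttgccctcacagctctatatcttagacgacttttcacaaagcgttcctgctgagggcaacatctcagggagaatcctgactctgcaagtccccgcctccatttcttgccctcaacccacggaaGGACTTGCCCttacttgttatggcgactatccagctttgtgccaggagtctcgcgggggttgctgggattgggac
Rchy1, 30 bases at chr5:91962627-91962656, minus strand: cactatgacaGAGCTTGTCTcctcaaggtg

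The match lay 186 to 177 bases before the start in Mdm2, 185 to 176 in Ccng1, 132 to 123 in Ppm1d, 75 to 66 in Trp53 and 90 to 81 in Rchy1. In Ccng1 the 10 bases before it continued the element: the run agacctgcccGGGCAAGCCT (chr11:40755462-40755481) matched 19 of the 20 bases of 2 adjoining half-sites. A run with at least 19 matches occurred in 0.0883% of all windows, and the other members had 17 or fewer. The best known p53 element of Mdm2 lies in its first intron, outside this window. These are matches of letters, and binding was not measured in these libraries. Any part of the matches in the levels or changes of the members was not tested.

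The unit is FPKM as made by the authors, fragments scaled to the length of the transcript and to the size of the library, so that levels of different genes can be compared. Changes are differences of log2(FPKM + 1) from a limma model over 13614 tested genes in all 27 libraries, with standard errors (SE) and p-values adjusted for all tested genes; a gene was called changed at an adjusted p below 0.05, and all 6 members were among the tested genes. The number of reads is unknown, but relative depth spanned only 0.982 to 1.10 of that of untreated 0 h replicate 1. Stem cell markers were high in every library (Pou5f1, 402 to 938 FPKM). Hepatocyte mRNAs summed to between 39.6 and 62.5 FPKM over 12 marker genes in all treated 0.5 h and untreated 24 h libraries, in treated 6 h replicate 3 and in treated 8 h replicates 1 and 2, and to between 1.40 and 6.86 FPKM elsewhere. Alb, one of the hepatocyte markers, was at most 28.3 FPKM. Astrocyte markers summed to 1.32 to 9.20 FPKM over the libraries. They spanned 1.54 to 8.93 FPKM within the treated 6 h group, 2.46 to 8.00 FPKM within treated 10 h and 2.55 to 6.91 FPKM within treated 2 h. In untreated 0 h libraries they were 1.42 to 2.29 FPKM. The part of these mRNAs in the results was not tested.

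In 4 libraries the mRNAs of 81 ribosomal protein genes were raised over the other libraries of their group: untreated 0 h replicate 3 (0.89 on the log2 scale, relative to untreated 0 h replicates 1 and 2), treated 2 h replicate 1 (0.78), treated 8 h replicate 3 (0.43) and treated 10 h replicate 3 (0.38). In all 4, Mdm2, Mdm4 and Ccng1 had the lowest value of their group and Trp53 the highest. Ppm1d was the lowest in 1 of them and Rchy1 in 0. The same measure stood at 0.27 to 0.41 in the treated 4 h libraries and at 0.13 to 0.45 in the untreated 24 h libraries. Several results that lean on these libraries are also given without some or all of them, and what set the libraries apart was not tested.

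**Figure D1:**
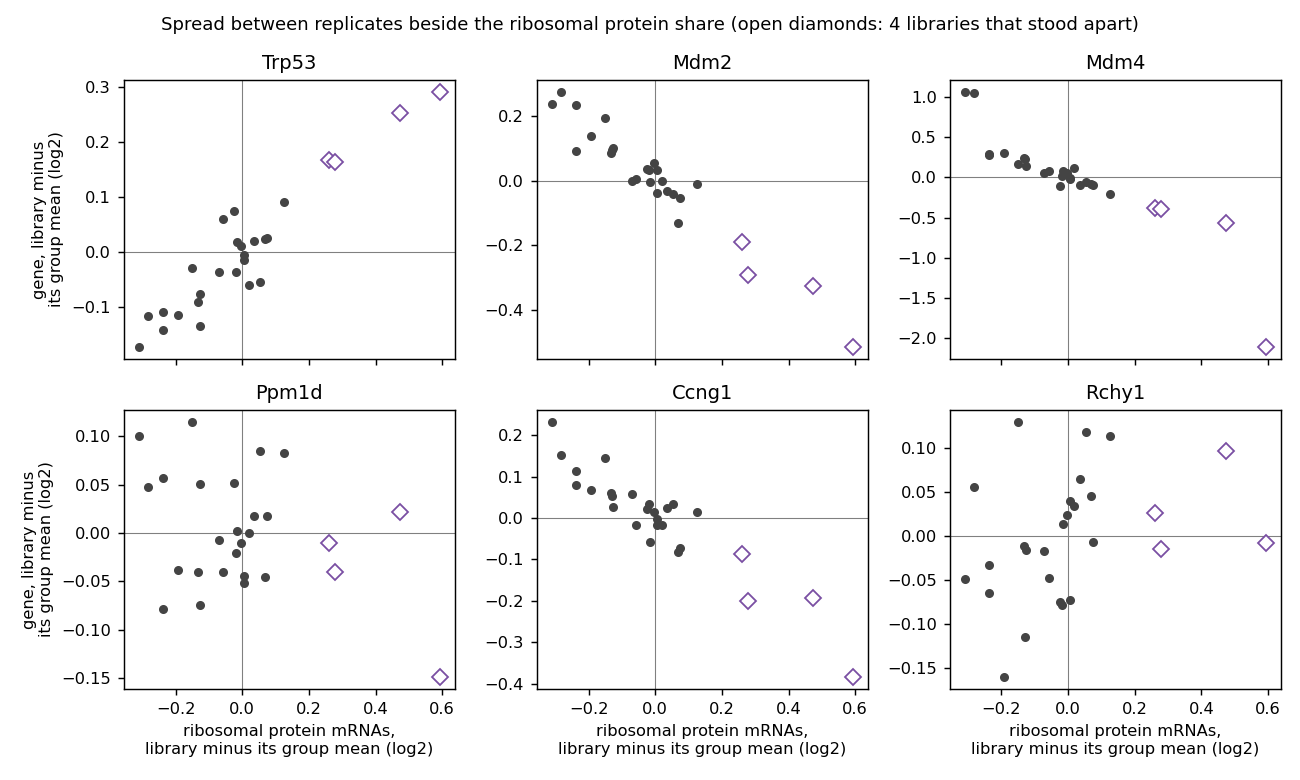
Each point is 1 of the 27 libraries; the horizontal axis is its mean log2 level of ribosomal protein mRNAs minus its group mean, and the vertical axis the member's log2(FPKM + 1) minus its group mean. Open diamonds mark the 4 libraries that stood apart, which lie above 0 for Trp53 and below 0 for Mdm2, Mdm4 and Ccng1, while Ppm1d and Rchy1 lie on both sides.

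Trp53 mRNA (chr11:69580359-69591873, plus strand) was abundant throughout and was never called higher after the treatment. It was 112, 107 and 111 FPKM at 4 h and 89.3, 98.1 and 92.2 FPKM at 6 h, against 99.3, 103 and 137 FPKM in untreated 0 h cells. At 4 h the groups overlapped, and at 6 h all treated values lay below the untreated ones, with a log2 change of -0.26 (SE 0.11, adjusted p = 0.0671). The mRNA was lower at 8 h, where it was 78.7, 79.5 and 94.4 FPKM, and at 10 h, where it was 81.0, 75.2 and 92.8 FPKM. The log2 changes were -0.41 (SE 0.11, adjusted p = 0.00604) and -0.43 (SE 0.11, adjusted p = 0.00582), and without the 4 libraries they were -0.35 and -0.37, still called. At 24 h treated cells had 96.2 to 100.1 FPKM and untreated cells 104 to 120.1 FPKM, a log2 change of -0.19 (SE 0.11, adjusted p = 0.250) that was called only without the 4 libraries (adjusted p = 0.00455). The 6 h difference was called without untreated 0 h replicate 1 (adjusted p = 0.0250) or replicate 2 (0.0450), each of which leaves replicate 3, the highest, in the reference. It was also called after a correction for GC content and length (-0.37, adjusted p = 0.0159) and with both untreated groups as the control (-0.27, adjusted p = 0.0290). A processed pseudogene, Trp53-ps, was at 1.04 to 2.59 FPKM in all libraries.

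Mdm2 (chr10:117688875-117710758, minus strand) rose the most of the members at 4 h, and it did so after no detectable change at 0.5 h and 2 h. It was 38.1, 38.9 and 36.9 FPKM at 0.5 h and 25.5, 34.5 and 38.2 FPKM at 2 h, against 40.1, 41.1 and 23.4 FPKM in untreated 0 h cells. At 4 h it was 125, 130.2 and 135 FPKM and at 6 h 140.3, 144 and 137 FPKM, so that every library of both groups was above every other library of the series. The mean ratio to untreated 0 h cells was 3.74 at 4 h (log2 change 1.92, SE 0.17, adjusted p = 1.27e-08) and 4.03 at 6 h (2.02, SE 0.17, adjusted p = 2.38e-09). At 4 h this was the 17th largest rise among 13614 genes. Without the 4 libraries the log2 changes were 1.66 and 1.76.

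The high level of Mdm2 was brief. At 8 h it was 60.9, 61.5 and 50.1 FPKM, a fall of 1.28 on the log2 scale below the 6 h level (SE 0.17, adjusted p = 5.66e-06), and at 10 h it was 71.6, 66.8 and 50.8 FPKM. Both remained above untreated 0 h cells, by 0.74 (SE 0.17, adjusted p = 0.00114) and 0.87 (SE 0.17, adjusted p = 4.00e-04). Leaving out 1 library at a time lowered these changes to as little as 0.49 at 8 h and 0.61 at 10 h. In a limma fit to only the 6 libraries compared, neither was called (adjusted p = 0.0934 and 0.12). At 24 h it was 48.9, 51.3 and 49.96 FPKM in treated cells, against 26.1, 31.6 and 28.4 FPKM in untreated 24 h cells, with no overlap (log2 change 0.79, SE 0.17, adjusted p = 0.00355). The hepatocyte markers also differed between these 2 groups, as given above. Ribosomal protein mRNAs were at -0.13 to -0.08 in the treated 24 h libraries and higher, at 0.13 to 0.45, in the untreated 24 h libraries. In the 4 libraries that stood apart, raised ribosomal protein mRNAs went with low Mdm2, Mdm4 and Ccng1 and high Trp53. The summed astrocyte markers overlapped, at 2.03 to 6.96 FPKM in treated and 6.92 to 8.20 FPKM in untreated 24 h cells. The other summed marker levels also differed, and none of them overlapped. Stem cell markers summed to 3291 to 3397 FPKM in treated 24 h cells and 3590.3 to 3945 FPKM in untreated 24 h cells, primitive endoderm markers to 2.46 to 3.07 and 1.31 to 1.48 FPKM, fibroblast markers to 2.11 to 2.32 and 1.598 to 1.75 FPKM, and blood cell markers to 6.23 to 7.77 and 4.08 to 4.90 FPKM. The part of these markers and of the ribosomal protein mRNAs in the 24 h results was not tested.

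Set against each other, Mdm2 mRNA exceeded Trp53 mRNA in all 6 libraries of 4 h and 6 h and in none of the other 21. The FPKM ratio of Mdm2 to Trp53 was 1.12, 1.21 and 1.22 at 4 h and 1.57, 1.47 and 1.48 at 6 h, against 0.404, 0.398 and 0.170 in untreated 0 h cells. It was 0.531 to 0.774 at 8 h and 0.548 to 0.888 at 10 h. At 24 h it was 0.489, 0.533 and 0.500 in treated cells, against 0.228, 0.304 and 0.236 in untreated cells, so these groups did not overlap either.

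**Figure D2:**
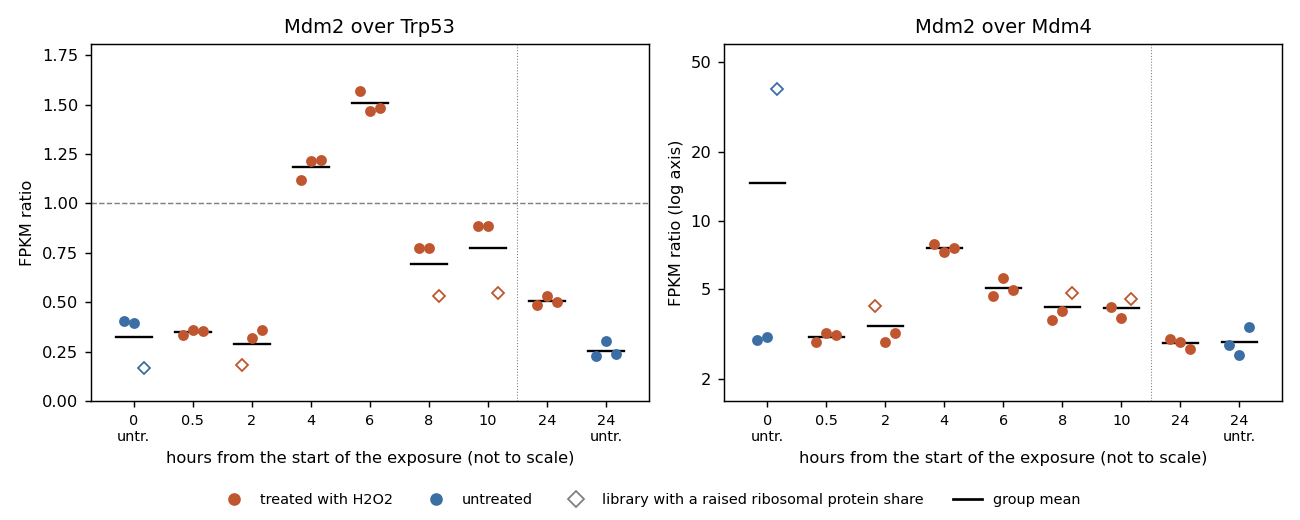
Ratio of the FPKM of Mdm2 to that of Trp53 (left) and of Mdm2 to Mdm4 (right, log axis) in each library, with lines for group means, over evenly spaced times. The left ratio passes 1 only at 4 h and 6 h, and the right one is 7.30 to 7.85 at 4 h; the open diamond at 38.0 is untreated 0 h replicate 3, where Mdm4 was 0.615 FPKM.

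Mdm4 (chr1:132959484-133030561, minus strand) is the partner of Mdm2 and was scarcer, and its level was highest at 6 h. It was 15.99, 17.8 and 17.8 FPKM at 4 h and 30.1, 25.6 and 27.7 FPKM at 6 h, against 13.4, 13.4 and 0.615 FPKM in untreated 0 h cells. The third untreated value decides the size of the change and its error. With it, the log2 change was 1.39 at 4 h (SE 0.50, adjusted p = 0.0452) and 2.05 at 6 h (SE 0.50, adjusted p = 0.00225). Without untreated 0 h replicate 3 the changes were 0.34 at 4 h (adjusted p = 0.258) and 1.00 at 6 h (adjusted p = 0.00106), so the 6 h call remained and the 4 h call did not. The 4 h call was also lost without treated 4 h replicate 1 (adjusted p = 0.0836), replicate 2 (0.104) or replicate 3 (0.105).

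At 8 h and 10 h Mdm4 was 16.6, 15.4 and 10.4 FPKM and 17.2, 17.9 and 11.3 FPKM, and neither was called (adjusted p = 0.0863 and 0.0691). Without untreated 0 h replicate 1 or 2 both were called (adjusted p between 0.0124 and 0.0148), with changes of 1.63 to 1.75, while without replicate 3 the changes were 0.05 and 0.17. At 24 h Mdm4 was 16.3, 17.5 and 18.4 FPKM in treated cells, against 9.24, 12.4 and 8.38 FPKM in untreated cells, with no overlap. That log2 change of 0.76 was not called with the SE of 0.50 that all 9 groups share (adjusted p = 0.291). It was called in a fit to these 6 libraries alone (adjusted p = 0.00799). Without the 4 libraries and untreated 24 h replicates 1 and 3, which leaves untreated 24 h replicate 2 alone, the change was 0.46. The FPKM ratio of Mdm2 to Mdm4 was 7.30 to 7.85 at 4 h, 4.65 to 5.61 at 6 h, and 2.99 and 3.07 in untreated 0 h replicates 1 and 2.

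Ppm1d (chr11:85311244-85347066, plus strand), the phosphatase, moved with Mdm2 in time but by less. It was 21.9, 21.5 and 21.5 FPKM at 4 h and 21.0, 21.8 and 20.2 FPKM at 6 h, against 12.8, 12.3 and 10.6 FPKM in untreated 0 h cells. The log2 changes were 0.81 (SE 0.07, adjusted p = 7.13e-09) and 0.77 (SE 0.07, adjusted p = 6.66e-09), and 0.74 and 0.70 without the 4 libraries. It stepped down at 8 h, to 14.4, 15.4 and 14.7 FPKM, by 0.48 on the log2 scale from 6 h (adjusted p = 1.73e-05). That left it 0.30 above untreated 0 h cells (SE 0.07, adjusted p = 0.00145), a call lost after median-of-ratios scaling (0.11, adjusted p = 0.170) and with a replicate block in only the 6 libraries compared (adjusted p = 0.0977).

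Ppm1d was the only member called lower early. At 2 h it was 9.70, 8.97 and 9.95 FPKM, below all 3 untreated 0 h values, with a log2 change of -0.29 (SE 0.07, adjusted p = 0.0343). The call was lost when any 1 of 5 of the 6 libraries compared was left out, with adjusted p between 0.0543 (without treated 2 h replicate 3) and 0.192 (without treated 2 h replicate 2); only leaving out untreated 0 h replicate 3 kept it. Against the 0.5 h group the 2 h level was also lower, by -0.29 (SE 0.07, adjusted p = 0.0321). At 10 h Ppm1d was 14.8, 12.8 and 13.2 FPKM and was not called (0.17, SE 0.07, adjusted p = 0.0527), but it was called without untreated 0 h replicate 1 (0.0212) or 2 (0.0465) or treated 10 h replicate 2 (0.0450). At 24 h it was 14.4, 13.997 and 14.2 FPKM in treated cells, against 11.4, 11.5 and 12.6 FPKM in untreated cells, a small rise of 0.25 (SE 0.07, adjusted p = 0.0181). This call was lost without treated 24 h replicate 1 (0.0621) or 3 (0.0560) and without untreated 24 h replicate 1 (0.0797) or 2 (0.0530).

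Ccng1 (chr11:40748552-40755311, minus strand) had the highest mean level of the members in all 9 groups. In the fit to all 27 libraries it was called higher at every time from 4 h on. It was 154, 169 and 164 FPKM at 4 h and 183, 188 and 185 FPKM at 6 h, against 139.7, 132 and 91.0 FPKM in untreated 0 h cells. The log2 changes were 0.44 (SE 0.12, adjusted p = 0.00666) and 0.64 (SE 0.12, adjusted p = 1.50e-04). Without the 4 libraries they were 0.25 and 0.44, both called. It was 163, 159 and 147 FPKM at 8 h and 175, 164 and 138 FPKM at 10 h, where the values overlapped those of untreated 0 h cells. At 8 h and 10 h the changes were 0.39 and 0.41 (adjusted p = 0.0117 and 0.0108). These 2 calls were lost without untreated 0 h replicate 3, where the changes were 0.20 (adjusted p = 0.0968) and 0.22 (adjusted p = 0.0820), and the 10 h call also without treated 10 h replicate 1 (adjusted p = 0.0666). The 8 h call was lost as well with a replicate block in only the 6 libraries compared (adjusted p = 0.0766). Median-of-ratios scaling ended the 8 h call (0.19, adjusted p = 0.0688) and the 10 h call (0.21, adjusted p = 0.0511). A limma fit to only the 6 libraries compared, without a block, ended the calls from 4 h to 10 h (adjusted p between 0.0511 and 0.303). At 24 h Ccng1 was 173, 174 and 163 FPKM in treated cells, against 108, 119 and 115 FPKM in untreated cells, with no overlap (0.57, SE 0.12, adjusted p = 0.00302).

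Rchy1 (chr5:91948904-91963068, minus strand), the ubiquitin ligase Pirh2, was first called at 6 h. It was 12.9, 12.8 and 13.2 FPKM at 4 h, against 11.5, 12.5 and 11.9 FPKM in untreated 0 h cells, which was no called change (0.11, SE 0.08, adjusted p = 0.357). At 6 h it was 19.3, 17.8 and 19.3 FPKM, higher by 0.61 (SE 0.08, adjusted p = 1.05e-06), and at 8 h 16.4, 16.4 and 16.9 FPKM, higher by 0.44 (SE 0.08, adjusted p = 9.05e-05). By 10 h it was 12.2 to 14.7 FPKM (adjusted p = 0.143), and at 24 h it was 10.98 to 12.2 FPKM in treated cells and 10.4 to 12.8 FPKM in untreated cells. Thap6, a pseudogene annotated on the opposite strand, shares 680 exon bases with Rchy1, and the strand setting of the counting is not given in the sources used here. Thap6 was 2.16 to 2.27 FPKM at 6 h, against 1.56 to 2.62 FPKM in untreated 0 h cells, a log2 change of 0.004 (SE 0.11, adjusted p = 0.981). At 8 h, where Rchy1 was called higher, Thap6 was too, at 2.98 to 3.20 FPKM (0.34, adjusted p = 0.0154). Thap6 was also called lower at 4 h (-0.36, adjusted p = 0.0160) and higher at 10 h (0.33, adjusted p = 0.0231), times without a Rchy1 call.

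**Figure D3:**
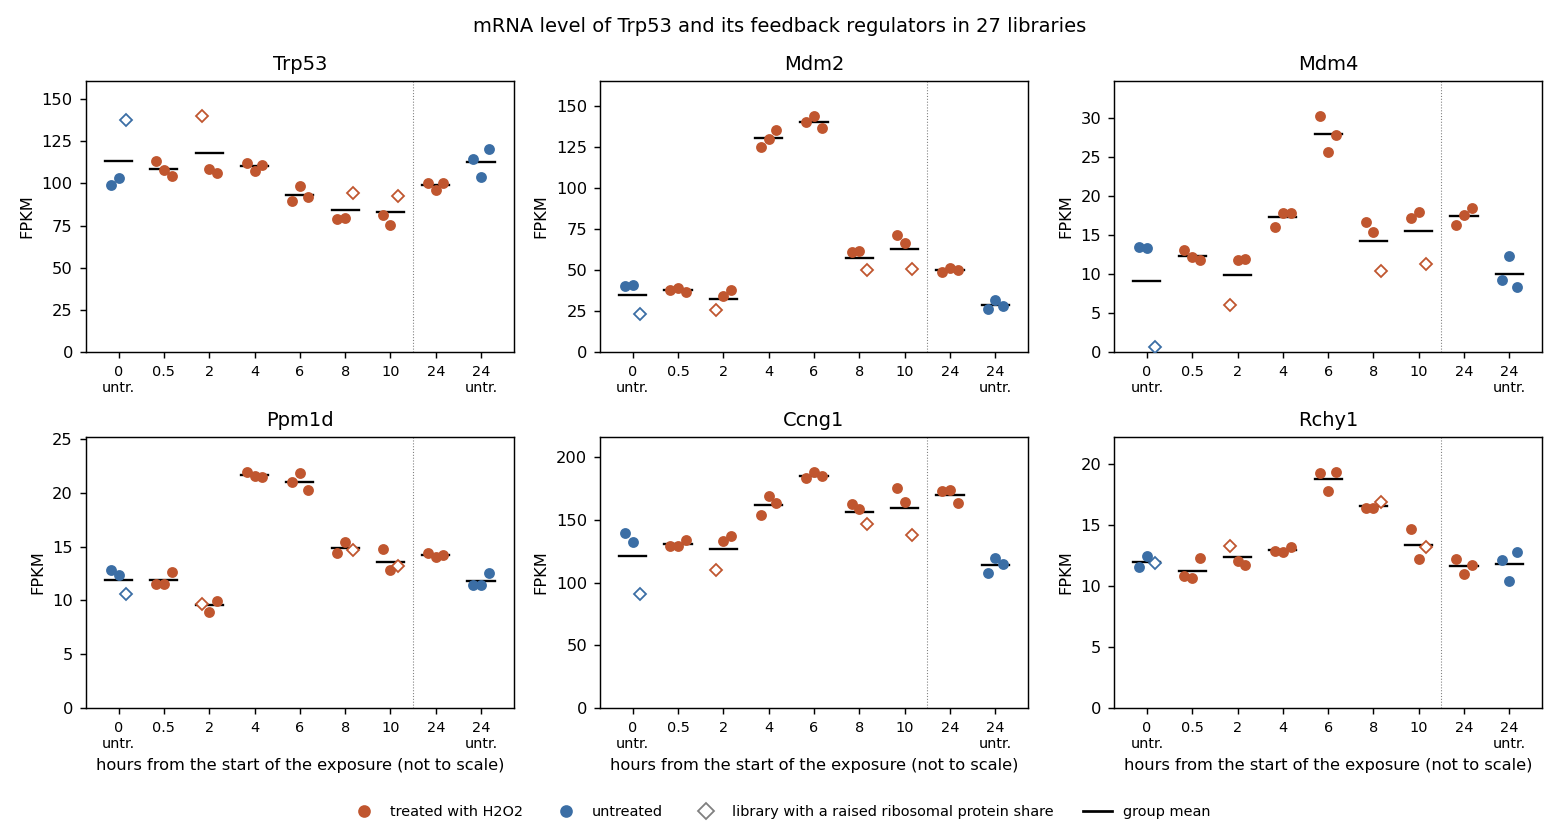
FPKM of the 6 members in each of the 27 libraries, by hours from the start of the exposure (evenly spaced), with treated 24 h beside untreated 24 h at the right of each panel. Points are libraries, lines group means and open diamonds the 4 libraries that stood apart; Mdm2 and Ppm1d are high at 4 h and 6 h, Mdm4 and Rchy1 are highest at 6 h, and Trp53 is lowest at 8 h and 10 h.

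Counted by time, 0 of the 6 members were called at 0.5 h, where 0.0808% of all tested genes were (limma adjusted p between 0.476 and 0.996, and 0 at an unadjusted p below 0.05). At 2 h 1 member was lower, beside 1.07% of all genes called in either direction. At 4 h 4 members were higher and 0 lower (Mdm2, Mdm4, Ppm1d and Ccng1), beside 26.3%. At 6 h 5 were higher and 0 lower, all but Trp53, beside 42.3%. At 8 h 4 were higher (Mdm2, Ppm1d, Ccng1 and Rchy1) and Trp53 lower, beside 40.7%, or 5545 genes. After median-of-ratios scaling 2 were higher and 1 lower, beside 5410 of all genes, and that scaling moved the median change of all genes by 0.16. With a replicate block in only the 6 libraries compared, 3 members were called at 8 h (Mdm2 and Rchy1 higher, Trp53 lower). At 10 h 2 were higher (Mdm2 and Ccng1) and Trp53 lower, beside 31.7%. After the same scaling, which moved the median by 0.16 here too, 1 was higher and 1 lower, beside 4260 of all genes. Without untreated 0 h replicate 1, or without replicate 2, 5 members were called at 10 h, beside 5054 and 4971 of all genes. In the fit to all 27 libraries 4309 of all genes were called at 10 h.

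At 24 h 3 members were higher in treated than in untreated cells (Mdm2, Ppm1d and Ccng1) and 0 lower, beside 12.9% of all genes. After median-of-ratios scaling 2 were higher there, without Ppm1d (0.15, adjusted p = 0.103). Between the untreated groups themselves, 24 h against 0 h, 0 members were called by limma and 0 had an unadjusted p below 0.05, beside 0.705% of all genes called. Leaving out any 1 of these 6 libraries also gave 0, but without the 4 libraries together 4 members were called between the untreated groups, with Mdm2 (-0.49, adjusted p = 1.45e-04), Mdm4 (-0.41, adjusted p = 0.00891) and Ccng1 (-0.25, adjusted p = 0.00211) lower at 24 h and Trp53 higher (0.15, adjusted p = 0.0476). In that setting 4100 of all tested genes were called between the untreated groups, against 96 in the fit to all 27 libraries. The 24 h comparison has its own untreated group, while the times from 0.5 h to 10 h share 1. The authors' deposited table marks Mdm2 as changed at 4 h and 6 h and no other member at any time, with q-values of 4.64e-16 and 1.91e-18. At 24 h the authors' deposited table gives q-values of 1.70e-14 for Mdm2, 2.25e-08 for Ccng1, 1.85e-07 for Mdm4 and 0.00268 for Trp53 (fold 0.875), without a mark.

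**Figure D4:**
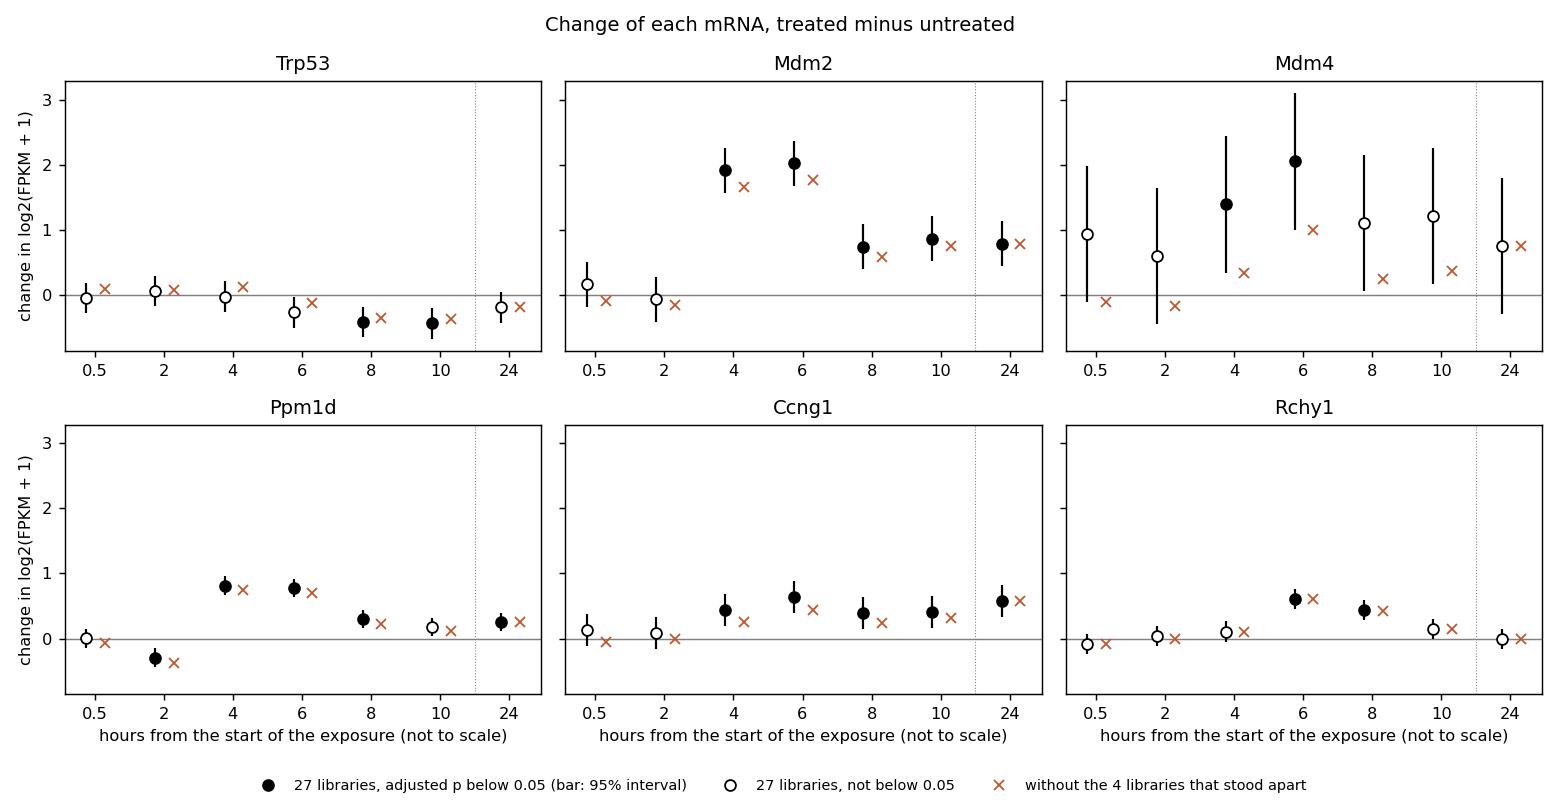
Change of each member in log2(FPKM + 1), treated minus untreated (0 h for 0.5 h to 10 h, 24 h for 24 h), with 95% intervals from the limma fit to 27 libraries and filled points where the adjusted p is below 0.05. Crosses give the change without the 4 libraries that stood apart. From 0.5 h to 10 h they lie far below the points for Mdm4, 1.00 against 2.05 at 6 h, and on or near them for Rchy1. At 24 h, where the groups compared hold no library of the 4, the crosses lie on the points.

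Between successive treated times, 8 of 36 member steps were called. From 0.5 h to 2 h 1 member fell, Ppm1d, beside 1.17% of all genes called. From 2 h to 4 h 3 rose, beside 20.1%: Mdm2 by 1.98 (SE 0.17, adjusted p = 1.24e-08), Ppm1d by 1.10 (SE 0.07, adjusted p = 1.31e-10) and Ccng1 by 0.36 (SE 0.12, adjusted p = 0.0347). From 4 h to 6 h only Rchy1 rose, by 0.50 (SE 0.08, adjusted p = 5.85e-05), beside 20.1%. From 6 h to 8 h Mdm2 and Ppm1d fell, beside 24.1%, and from 8 h to 10 h Rchy1 fell by 0.29 (SE 0.08, adjusted p = 0.0253), beside 5.37%. From 10 h to 24 h 0 members were called by limma, with 2 at an unadjusted p below 0.05, beside 19.3%. Without the 4 libraries 16 steps were called, and no share of all genes was computed in that setting.

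In the order of levels, 4 of 48 pairs of neighbouring groups were called different, and in 12 the values of the 2 groups did not overlap. The pairs follow each member's own order, so no share of all genes was computed, and the counts are a description. Mdm2 was highest at 6 h and then 4 h, which were not called different (adjusted p = 0.717), followed by a called gap down to 10 h (1.05, SE 0.17, adjusted p = 4.22e-05); 8 h, 24 h treated, 0.5 h, untreated 0 h, 2 h and untreated 24 h followed with no called gap. Ppm1d had 4 h and 6 h on top, a called gap down to 8 h, and a last called gap between untreated 24 h and 2 h (0.28, SE 0.07, adjusted p = 0.0211). Rchy1 ran from 6 h to 8 h and then, across a called gap, to 10 h and the rest. Mdm4, Ccng1 and Trp53 had no called gap; Mdm4 and Ccng1 were highest at 6 h, and Trp53 at 2 h, a group whose highest value, 139.7 FPKM, came from a library that stood apart. Without untreated 0 h replicate 3, 7 pairs were called.

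The 24 h effect (against untreated 24 h cells) was set against the 6 h effect (against untreated 0 h cells) in a test chosen after the values were seen. It was smaller for 3 of the 6 members, beside 25.4% of all genes called in this test: Mdm2 (-1.23, SE 0.23, adjusted p = 4.25e-04), Ppm1d (-0.52, SE 0.10, adjusted p = 3.00e-04) and Rchy1 (-0.62, SE 0.11, adjusted p = 1.57e-04). Ccng1 had effects of 0.57 at 24 h and 0.64 at 6 h, with a difference of -0.06 (SE 0.17, adjusted p = 0.830). Set against the 10 h effect, 0 members were called by limma and 0 had an unadjusted p below 0.05, beside 8.7%, with differences between -0.46 for Mdm4 and 0.25 for Trp53.

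The genes whose 9 group means followed each member most closely were looked up among 7392 tested genes that reached a mean of 5 FPKM in at least 1 group, by Pearson's r, as a description. For Mdm2 they were Lpin1 (r = 0.996), Zfp750 (0.992) and Trim11 (0.990). For Ppm1d they were Neurod1 (0.965), Zfp750 (0.964) and Plxnb2 (0.960), and for Ccng1 they were Trp53inp1 (0.984), itself known as a p53 target, Cpped1 (0.975) and Cd80 (0.972). For Rchy1 they were Ttll1 (0.977), Ppp1r37 (0.969) and Nsl1 (0.962), for Mdm4 Sec61a2 (0.973), Pisd-ps2 (0.957) and Ogdhl (0.955), and for Trp53 Nudc (0.997), Lyar (0.991) and Thop1 (0.990). Among the members themselves Mdm2 and Ppm1d were the most alike (r = 0.955), and Trp53 had a negative r with each of the others, between -0.66 with Ccng1 and -0.36 with Ppm1d. Each mean rests on 3 libraries, and the ribosomal protein mRNAs differed between the groups as given above.

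The surrounding pathway was described with 7 gene lists, and 6 genes stand in 2 lists. Of all tested genes, 1.07% were called in either direction at 2 h, 26.3% at 4 h and 42.3% at 6 h. The share was 40.7% at 8 h, 31.7% at 10 h and 12.9% at 24 h. Of 35 tested p53 targets outside the members, 26 were higher and 2 lower at 4 h, 27 and 2 at 6 h, 23 and 0 at 8 h, 20 and 0 at 10 h, and 19 and 0 at 24 h, with 1 higher at 2 h. Their median log2 change was 0.82 at 4 h and 0.80 at 6 h, against 0.01 and 0.0003 for all genes, and 0.40 at 24 h, against 0.07. At 6 h Polk, a DNA polymerase that copies past damage, was 17.7 ± 1.00 FPKM, against 2.98 ± 1.40 FPKM in untreated 0 h cells (SD, n = 3 each). Apaf1, the scaffold of the apoptosome, was 23.9 ± 1.13 FPKM, against 5.44 ± 2.24 FPKM. Fas, a death receptor, was 4.28 ± 0.25 FPKM, against 0.29 ± 0.12 FPKM, and Tap1, a peptide transporter of antigen presentation, 7.62 ± 0.45 FPKM, against 0.94 ± 0.37 FPKM.

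Of 11 tested genes in another list of p53 feedback, 5 were higher and 3 lower at 6 h, beside 42.3% of all genes called. At 24 h 4 were higher and 0 lower, beside 12.9%. The list includes Trp53inp1 and Pml, so it is not limited to genes that act against p53. Trp53inp1, which brings p53 to a kinase, rose by 1.50 (SE 0.25, adjusted p = 4.66e-05) at 6 h and by 1.08 (adjusted p = 0.00686) at 24 h. Siah1b, a ubiquitin ligase, rose by 0.74 (SE 0.08, adjusted p = 7.04e-08) and Zmat3, an RNA-binding p53 target, by 0.85 (SE 0.15, adjusted p = 6.19e-05) at 6 h. Of 13 tested family members and cofactors of p53, 7 were higher and 2 lower at 6 h, beside 42.3% of all genes called. Trp73, the gene of the p53 relative p73, was 18.9 ± 0.67 FPKM at 6 h, against 3.67 ± 0.56 FPKM in untreated 0 h cells (2.09, SE 0.08, adjusted p = 4.89e-14). Ppp1r13l, the inhibitory cofactor iASPP, was 11.8 ± 0.54 FPKM, against 2.93 ± 0.58 FPKM (1.71, SE 0.12, adjusted p = 1.92e-10), and Pml, which gathers p53 in nuclear bodies, rose by 0.43 (SE 0.11, adjusted p = 0.00255).

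Among 19 tested relatives and partners of Ppm1d and Ccng1, 9 were higher and 6 lower at 6 h, beside 42.3% of all genes called. Ppp2r5d, a regulatory subunit of PP2A, was 66.8 ± 1.07 FPKM, against 36.2 ± 3.53 FPKM (0.87, SE 0.07, adjusted p = 9.42e-10), while Ppp2r5b, another, was lower by -0.57 (SE 0.12, adjusted p = 4.91e-04). Of 14 kinases and other upstream factors 2 were higher and 3 lower at 6 h, beside the same 42.3%. The higher ones were Rad9a, a subunit of a damage-sensing clamp (0.74, SE 0.10, adjusted p = 2.18e-06), and Chek2, a checkpoint kinase (0.26, SE 0.08, adjusted p = 0.00801). Among the lower ones were Hipk2, a kinase of p53 at 0.76 ± 0.03 FPKM, against 1.32 ± 0.23 FPKM in untreated 0 h cells (-0.39, SE 0.10, adjusted p = 0.00231), and Dyrk2, another (-0.39, SE 0.15, adjusted p = 0.0370). Of 15 other ubiquitin ligases and deubiquitinases 2 were higher and 3 lower, beside the same 42.3%. Trim28 was at -0.46 (SE 0.08, adjusted p = 4.90e-05) and the deubiquitinase Usp10 at -0.52 (SE 0.10, adjusted p = 3.54e-04). Of 14 enzymes that acetylate, methylate or deacetylate p53 3 were higher and 2 lower, again beside 42.3%. The acetyltransferase Kat8 was at 0.46 (SE 0.09, adjusted p = 2.93e-04) and the methyltransferase Kmt5a at -0.43 (SE 0.06, adjusted p = 8.43e-06).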

How the data were processed

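Per the labels' protocols, poly(A) RNA was made into TruSeq stranded libraries and sequenced in paired-end mode. Tools listed in the submitters' processing notes are HISAT2, StringTie, cutadapt, FastQC and edgeR, with the build mm10. The sources used here do not give their settings, the strand setting or the annotation release. Deposited by the authors were 7 tables with an FPKM value per gene and library, a fold (the ratio of mean FPKM, checked to within 0.1 percent for 181871 values) and a q-value; fold and q-value were only copied. Repeated columns were identical, and 0 columns belonged to samples outside the series. The labels give 500 µM in the protocol and another unit in the design text; the protocol's was used.

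Genes that reached 1 FPKM in 3 or more libraries were tested on log2(FPKM + 1), where a change of a low gene is understated, with limma 3.58.1 in R 4.3.3 (a mean-variance trend, 1 mean for each of 9 groups, Benjamini-Hochberg adjustment within each comparison). The fit was tested on simulated data. FPKM carries no read number, so no counting error is given. The p-values rest on the spread between the 3 replicates of a group, pooled over all 9 groups. That spread is also drawn towards that of genes of similar level, so it is not the spread of only the groups compared. Of 108 correlations between the deviations of same-numbered replicates 35 passed 0.1. All 3 did so in 3 of 36 pairs of groups. These were treated 8 h with untreated 0 h (0.464 to 0.691), treated 10 h with untreated 0 h (0.558 to 0.797) and treated 10 h with treated 8 h (0.301 to 0.668). Replicate 3 of each is a library that stood apart, and the 3 deviations within a group sum to 0. These correlations therefore cannot decide whether the replicates were paired. As an alternative, a replicate block in only the 6 libraries compared was added at 8 h and 10 h after the data were seen. Positions are from GENCODE M21 on GRCm38, sequences from RefSeq on GRCm38.p6. Members, gene lists and the 4 libraries treated as standing apart were chosen with earlier results of these data known. Named genes are the members, the 3 genes most like each, and up to 4 genes called at 6 h with the largest change in each list, of which the text gives part. Wrap53, Thap6 and Trp53-ps were chosen after their values were seen. Alternatives were other pseudocounts, filters, scaling, a replicate block, a GC content and length correction, other control or library sets, and each replicate left out.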

Additional observations from a re-analysis of the deposited data

Results flagged for a closer look

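For 3 members the change from untreated cells was smaller at 24 h than at 6 h in a test of the difference itself. This test was chosen after the values were seen (limma, adjusted over 13614 genes), and it called 25.4% of all genes. The 24 h effect minus the 6 h effect was -1.23 on the log2 scale for Mdm2 (0.79 at 24 h and 2.02 at 6 h), -0.52 for Ppm1d (0.25 at 24 h and 0.77 at 6 h) and -0.62 for Rchy1 (-0.01 at 24 h and 0.61 at 6 h). Each effect has its own untreated group, matched in time only at 24 h. Treatment and time in culture can therefore not be told apart in this difference. With 3 libraries in each group, single libraries were not screened as outliers.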

How the results depend on the processing

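At 0.5 h 0 members were called under every alternative run. Fitting only the 6 libraries compared gave 0 members at 2 h, 2 at 4 h, 3 at 6 h, 1 at 8 h and 0 at 10 h, beside 3, 1061, 2713, 1537 and 484 of all genes. A required change of at least 1 on the log2 scale left 0 at 2 h, 2 at 4 h, 2 at 6 h, 0 at 8 h, 0 at 10 h, 0 at 24 h, 3 steps and 1 pair of neighbours; of all genes it left 23, 341, 772, 312, 167 and 71 from 2 h to 24 h. Median-of-ratios scaling, alone or with the replicate block, gave 3 at 8 h, beside 5410 and 5654 of all genes. A correction for GC content and length gave 13 steps and 9 neighbours. Without the 4 libraries that stood apart, 5 members were called at 24 h, 4 between the untreated groups, 16 steps and 15 neighbours, and Mdm4 between the untreated groups turned to -0.41 from a value of 0.65 that had not been called. Leaving out untreated 24 h replicates 1 and 3 as well, chosen after seeing the data, gave 1 member between the untreated groups; untreated 24 h replicate 2 then stands alone and is assumed to vary like the other groups. Leaving out 1 library at a time gave 0 to 1 members at 2 h, 3 to 4 at 4 h, 5 to 6 at 6 h and 4 to 6 at 8 h. It gave 2 to 5 at 10 h, 2 to 3 at 24 h, 0 between the untreated groups, 6 to 8 steps and 3 to 7 neighbours. Of all genes it called 101 to 308 at 2 h, 2927 to 4408 at 4 h, 4937 to 6016 at 6 h and 4385 to 5927 at 8 h. The range was 3096 to 5054 at 10 h, 881 to 1686 at 24 h and 33 to 208 between the untreated groups. Leaving out 1 library ended 16 calls and added 9 among 288 member changes. The cause of these shifts was not tested, and for steps and neighbours no share of all genes was computed under the alternatives. The rises of Mdm2 and Ppm1d at 4 h and 6 h held their call in all of these except, for Ppm1d, the required change of 1.

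The replicate block over all 27 libraries changed no member call (5 members at 6 h, 8 steps); over all genes it gave 5927 calls at 6 h instead of 5761. In only the 6 libraries compared, the block gave 3 members at 8 h, without Ccng1 and Ppm1d, and 3 at 10 h, beside 3416 and 3167 of all genes. Over all genes, the fit to the 6 libraries compared and the fit without the 4 libraries gave 484 and 5414 calls at 10 h, beside 4309, and 4882 and 6987 at 24 h, beside 1757. FPKM hides the read number, so what depth limits is unknown.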

Other observations

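Wrap53, chosen after its values were seen, starts beside Trp53 on the opposite strand, and no exon bases are shared between the genes in the annotation. Its product takes part in telomerase assembly and DNA repair. It was 21.3, 20.1 and 23.3 FPKM at 4 h and 33.4, 34.5 and 35.6 FPKM at 6 h, against 13.1, 13.99 and 16.3 FPKM in untreated 0 h cells, with no overlap. The log2 changes were 0.55 (SE 0.08, adjusted p = 3.40e-05) and 1.21 (SE 0.08, adjusted p = 2.14e-10) in the limma fit, while Trp53 was not called at either time. At 8 h Wrap53 was 22.5, 25.1 and 24.9 FPKM (0.71, SE 0.08, adjusted p = 1.01e-06), and at 10 h 15.5, 15.2 and 15.2 FPKM (0.08, SE 0.08, adjusted p = 0.465). Trp53 was called lower at both of these times.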
